A study of Mus musculus with 4 samples.

Results

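The keratin family was taken as every gene whose current symbol is Krt followed by a number, with or without a letter, and the keratin-associated proteins (Krtap genes) were left out. Of the 32360 genes with a probe on the array, 53 were keratins, and they had 64 probes. RefSeq lists 54 such symbols, and Krt83 was the 1 without a probe. The comparison was made in ears of male BALB/c mice, 6 to 10 weeks old, of which 9 were used in all. Mice of the exposed group inhaled diesel exhaust particles (DEP) for 1 h on each of 5 days, all mice were killed on day 14, and temporal bone tissue that included the middle ear was taken. The control extracts carry the treatment label none, and a vehicle or sham exposure is not described in the sources used here. On each of 4 arrays, all on 1 slide, an extract labelled DEP ear (red dye, Cy5) was hybridised together with an extract labelled control ear (green dye, Cy3). The labels call the arrays biological replicates, but the number of mice behind an extract is not stated, so that the spread between arrays may include animals, dissections and technical error.

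Keratins are the intermediate filament proteins of epithelial cells, and a filament needs a type I partner and a type II partner. Mouse type I keratin genes lie together on chromosome 11 and type II genes on chromosome 15, where Krt18 is the exception, a type I gene beside its partner Krt8. Simple epithelia, such as the ciliated and secretory lining of the middle ear, build filaments mainly from Krt8, Krt18, Krt19 and Krt7. Stratified epithelia, such as the skin of the ear canal and the outer face of the eardrum, use Krt5 and Krt14 in their dividing basal layer and Krt1 and Krt10 above it, while Krt6a, Krt16 and Krt17 are known for wounded or fast-renewing epidermis. Hair keratins belong to the hair shaft and its inner root sheath.

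By their known place of expression, 5 of the 53 genes were grouped as simple, 17 as stratified and 23 as hair keratins. The other 8 (Krt23, Krt24, Krt42, Krt79, Krt80, Krt88, Krt90 and Krt222) were kept apart as unclassed. The sequences shown first are the promoters of the genes on which the comparison turns, the basal pair Krt14 and Krt5, the simple pair Krt8 and Krt18, and Krt79, the gene with the highest mean ratio among keratins measured in both channels. RefSeq promoters of assembly GRCm38.p6 run from 250 bases before to 50 bases after the annotated start, and 36 of the 53 members had an entry, with 37 promoters between them. Each sequence is written 5′ to 3′ in the direction of transcription, with capitals for matches on either strand to TATAAA or ATAAAA (letters of the TATA box), to TGANTCA (the AP-1 core) or to GGGCGG (the Sp1 core). TATAAA and ATAAAA overlap wherever TATAAAA occurs. The Krt14 promoter lies at chr11:100205981-100206280 on the minus strand, that of Krt5 at chr15:101712856-101713155 (minus), that of Krt79 at chr15:101940275-101940574 (minus), that of Krt8 at chr15:102004293-102004592 (minus) and that of Krt18 at chr15:102027966-102028265 (plus).
Krt14: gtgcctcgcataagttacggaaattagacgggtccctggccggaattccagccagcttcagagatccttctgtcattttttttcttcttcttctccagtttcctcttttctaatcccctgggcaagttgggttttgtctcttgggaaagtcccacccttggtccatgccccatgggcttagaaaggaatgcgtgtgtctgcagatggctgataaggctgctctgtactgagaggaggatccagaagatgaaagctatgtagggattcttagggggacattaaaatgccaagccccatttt
Krt5: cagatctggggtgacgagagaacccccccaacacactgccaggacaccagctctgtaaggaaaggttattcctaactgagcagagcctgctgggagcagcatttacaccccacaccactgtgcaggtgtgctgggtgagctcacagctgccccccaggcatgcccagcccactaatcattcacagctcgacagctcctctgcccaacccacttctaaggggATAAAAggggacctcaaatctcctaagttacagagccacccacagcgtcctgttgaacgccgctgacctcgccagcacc
Krt79: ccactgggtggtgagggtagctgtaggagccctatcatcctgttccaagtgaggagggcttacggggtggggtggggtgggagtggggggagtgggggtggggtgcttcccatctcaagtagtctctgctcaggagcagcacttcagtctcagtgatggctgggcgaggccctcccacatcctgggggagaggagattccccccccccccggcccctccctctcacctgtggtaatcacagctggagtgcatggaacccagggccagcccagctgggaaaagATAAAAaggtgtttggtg
Krt8: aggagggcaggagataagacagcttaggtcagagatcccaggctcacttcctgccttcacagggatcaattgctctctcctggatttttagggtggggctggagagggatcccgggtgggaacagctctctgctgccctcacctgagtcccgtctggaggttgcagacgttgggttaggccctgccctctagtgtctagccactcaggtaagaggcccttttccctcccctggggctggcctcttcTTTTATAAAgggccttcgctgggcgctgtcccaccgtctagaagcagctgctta
Krt18: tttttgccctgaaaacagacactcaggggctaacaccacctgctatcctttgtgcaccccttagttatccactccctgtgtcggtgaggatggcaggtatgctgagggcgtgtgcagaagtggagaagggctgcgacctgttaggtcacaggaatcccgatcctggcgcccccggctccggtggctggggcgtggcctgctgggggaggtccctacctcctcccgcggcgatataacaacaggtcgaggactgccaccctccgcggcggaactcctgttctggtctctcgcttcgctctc

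None of the 4 motifs was found in the windows of Krt14 and Krt18. Krt5 and Krt79 each held 1 match to ATAAAA, and in Krt8 the matches to TATAAA and ATAAAA lay next to the annotated start. Across the classes, TATAAA was found in 13 of 17 hair, 3 of 11 stratified and 2 of 4 simple keratin promoters, against 13.6% of all 32851 promoters in the table. ATAAAA was found in 13 of 17 hair, 3 of 11 stratified and 3 of 4 simple keratin promoters, against 18.5% of all. The Sp1 core was found in 35.7% of all promoters but in 0 of 11 stratified, 1 of 17 hair (Krt75) and 1 of 4 simple (Krt7) keratin promoters. TGANTCA was found in 7.81% of all promoters and in 2 of the 37 keratin promoters, both of Krt13. These counts describe letters in the windows and were not tested.

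Which keratins could be measured differed between the classes. A probe is called measured here when its signal was well above background, by the flag of the image software, in both channels on all 4 arrays. That held for 27 of the 53 members and for 56.7% of all genes. The 27 were 4 of 5 simple, 14 of 17 stratified, 4 of 23 hair (Krt31, Krt73, Krt81 and Krt86) and 5 of 8 unclassed keratins. A further 3 (Krt28, Krt75 and Krt90) had at least 1 channel above background on every array, 12 were above it on some arrays, and 11 were not above it on any array. The last group held 9 hair keratins. A ratio on at least 3 arrays was required for a test, which 42 members had. Keratins are close paralogues, and cross-hybridisation between them was not tested, as probe sequences are not analysed here.

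Ratios are log2 values of the red channel, labelled DEP, over the green channel, labelled control, so that 1 is a 2-fold difference towards the former and -1 a 2-fold difference towards the latter. The direction rests on the source names in the labels, which elsewhere list both treatments under the red channel. With this direction most genes that the study lists as upregulated lie below 0 and most that it lists as downregulated lie above 0, so it is opposite to the study's. The dyes were never swapped, so an effect of the dye and one of the exposure cannot be told apart. In whole tissue, fewer cells of a type and less RNA per cell cannot be told apart either. Over all genes the arrays were unlike each other, with Pearson's r across genes between -0.22 (arrays 1 and 4) and 0.61 (arrays 1 and 2), where genes are not independent replicates. Between 65.4% and 69.0% of probes were well above background in the red channel and between 59.3% and 68.0% in the green, and the number of arrays limits the precision.

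No keratin differed between the channels over the 4 arrays after adjustment for all 31577 probes tested. At an adjusted p under 0.05, limma called 0 of 42 members and 0 of 25694 genes (0%), and the lowest adjusted p of a member was 0.148. At an unadjusted p under 0.05, 2 of 42 members were higher in the channel labelled DEP, where 10% of all genes were, and 1 of 42 was lower, where 8.66% of all genes were. A mean ratio past 2-fold was reached by 2 members towards higher, against 2.38% of all genes, and by 1 towards lower, against 4.40%. Least squares without limma's moderation also gave 0 members after adjustment and 3 before it. Without array 4, 14 members had a mean ratio past 2-fold higher and 1 past 2-fold lower, against 4.09% and 5.94% of all genes in the same fit, and 8 were higher and 1 lower at an unadjusted p under 0.05, against 8.90% and 9.83%. Without array 1, 1 member was past 2-fold in each direction, against 2.23% and 3.57%, and 5 were higher and 1 lower at an unadjusted p under 0.05, against 11% and 6.94%.

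The ratios of the stratified keratins differed strongly between arrays. The median ratio of the 15 stratified keratins tested was 2.55 on array 1, 0.35 on array 2, 0.08 on array 3 and -0.85 on array 4. All genes had medians of -0.02, 0.08, 0.03 and 0.04 on the same arrays. The stratified keratins were thus far above 0 on array 1 and below 0 on array 4, with arrays 2 and 3 between. Over the 4 arrays the mean ratio had a median of 0.60, with 14 of 15 genes above 0, and a median SD of 1.52, against a mean-ratio median of 0.03 and a median SD of 0.34 over all genes. Without array 1 that median of mean ratios was -0.12 with 5 of 15 genes above 0, and without array 4 it was 1.07. Under the processing alternatives that keep all 4 arrays the array medians kept their signs, from 2.36 to 2.63 on array 1 and from -0.85 to -0.44 on array 4.

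**Figure D1:**
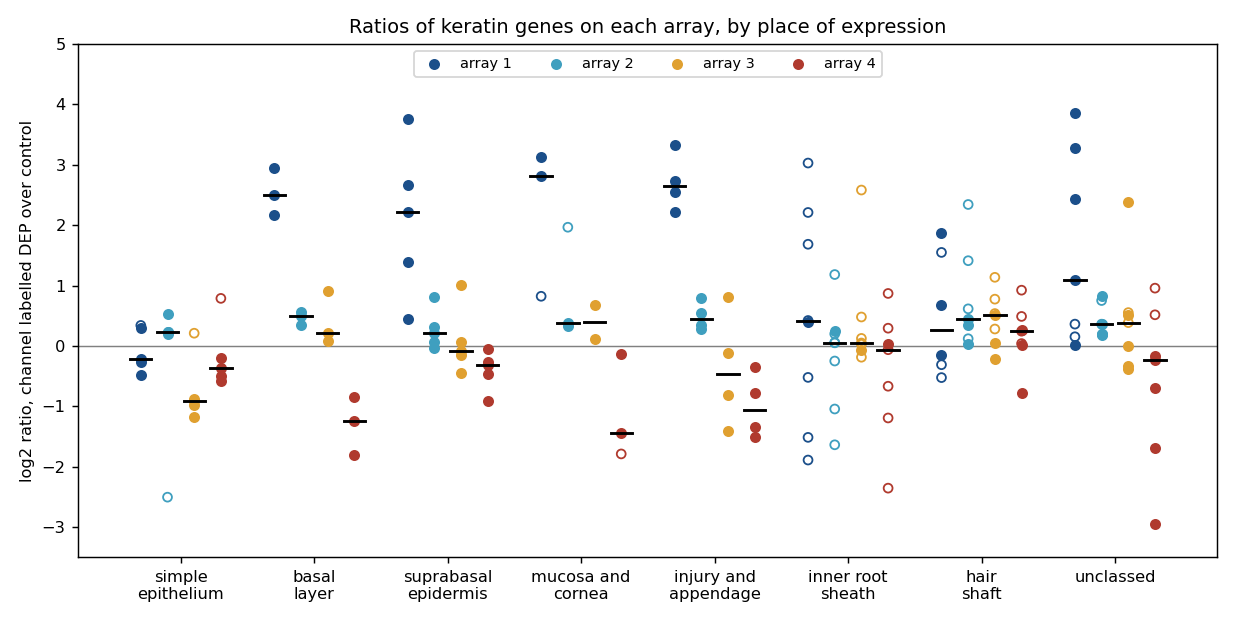
Log2 ratio (vertical axis, red channel, labelled DEP, over green channel, labelled control) of each keratin tested on each of the 4 arrays. Genes are grouped by place of expression, with the stratified and hair classes split into their subgroups and the unclassed keratins apart. Filled points are the genes called measured, open points are other genes tested, and bars are medians of the groups drawn. Over the whole class, stratified keratins have a median of 2.55 on array 1 and -0.85 on array 4. Simple keratins have -0.22 on array 1 and -0.91 on array 3.

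Counted gene by gene, 13 of the 14 measured stratified keratins were past 2-fold higher on array 1, where 6.82% of all measured genes were, and 0 were past 2-fold lower, where 7.06% were. On array 4, 5 of the 14 were past 2-fold lower, against 2.95% of all measured genes, and 0 were past 2-fold higher, against 0.850%. On array 2, 0 of the 14 passed 2-fold in either direction, against 0.736% higher and 4.11% lower of all measured genes. On array 3, 1 of the 14 was past 2-fold higher (Krt9), against 1.98%, and 1 was past 2-fold lower (Krt16), against 3.21%. The 5 genes of array 4 (Krt5, Krt14, Krt13, Krt6b and Krt17) were among the 13 of array 1, and 1.86% of all measured genes passed 2-fold in both these ways. All 14 were above 0 on array 1 and below 0 on array 4, which held for 27.3% of all measured genes. The 1 gene short of 2-fold on array 1 was Krt2.

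Krt5 and Krt14 form the filaments of basal cells. Krt14 had normalized levels (dye-corrected intensities scaled across the arrays) of 45790, 15873, 12113 and 4497 in the extracts labelled DEP on arrays 1 to 4, and of 5918, 10720, 6410 and 15695 in the control extracts. The channel labelled DEP thus held both the highest and the lowest Krt14 level, and the 2 groups of extracts overlapped. Its ratios were 2.95, 0.57, 0.92 and -1.80 (mean 0.66 ± 1.95 SD, n = 4, SE 0.76, limma adjusted p = 0.657). Krt5 had ratios of 2.17, 0.35, 0.08 and -1.24 (mean 0.34 ± 1.40 SD, n = 4, SE 0.55, limma adjusted p = 0.756). A second Krt5 probe gave 2.91, -0.06, 0.15 and -1.54, the same order of the outer arrays. Krt15, a basal keratin also found in hair follicle stem cells, had ratios of 2.50, 0.50, 0.21 and -0.85. Between the lowest and the highest extract labelled DEP, the levels spanned 10.2-fold for Krt14 and 5.93-fold for Krt5, against 2.65-fold and 1.79-fold between the control extracts. Without array 1 the means of Krt5, Krt14 and Krt15 were -0.27, -0.11 and -0.04, and without array 4 they were 0.87, 1.48 and 1.07. With normexp background correction and median centring they were 1.03, 1.22 and 1.2, none with an adjusted p under 0.05.

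Krt1 and Krt10 replace the basal pair as cells leave the basal layer. Krt1 had levels of 9154, 1165, 888 and 488 in the extracts labelled DEP and of 679, 1000, 936 and 913 in the control extracts. A single extract, that labelled DEP on array 1, stood far above the other 7. Its ratios were 3.75, 0.22, -0.07 and -0.90 (mean 0.75 ± 2.06 SD, n = 4, limma adjusted p = 0.633). Krt10 had ratios of 2.67, 0.31, 0.07 and -0.04 (mean 0.75 ± 1.29 SD, n = 4, limma adjusted p = 0.461), so that it lay near 0 on every array but the first. Its other probe gave 2.38, 0.06, -0.11 and -0.31. Krt77, a suprabasal keratin of skin, had ratios of 2.22, 0.07, -0.15 and -0.32, and Krt9, the keratin of footpad skin, had 1.39, 0.81, 1.02 and -0.46. The suprabasal Krt2 departed from these on its brighter probe, with 0.45, -0.04, -0.44 and -0.26, while a dimmer Krt2 probe, above background in 1 extract only, gave 4.58 on array 1. Without array 1 the mean of Krt1 was -0.25 and that of Krt10 was 0.11, and without array 4 they were 1.30 and 1.02.

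Krt4 and Krt13 are the pair of stratified mucosa such as oral lining. Krt13 had ratios of 3.12, 0.33, 0.67 and -1.44 (mean 0.67 ± 1.88 SD, n = 4, limma adjusted p = 0.639), with a mean of -0.15 without array 1 and of 1.38 without array 4. The other Krt13 probe gave 1.92, 0.02, -0.26 and -0.89. Krt4 was above background in 1 of the 8 extracts, and its ratios of 0.82, 1.97 and -1.79 on arrays 1, 2 and 4 rest on signals near background. Krt78, a further keratin of stratified epithelia, had ratios of 2.82, 0.38, 0.12 and -0.13. Krt12, the cornea keratin, and Krt76, a keratin of palate and other mucosa, had too few ratios for a test.

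The keratins of wounded or fast-renewing epidermis differed from each other on array 3. Krt6a had ratios of 2.73, 0.54, -0.11 and -0.78 (mean 0.60 ± 1.52 SD, n = 4, limma adjusted p = 0.609). For Krt16 the ratios were 2.55, 0.28, -1.41 and -0.35 (mean 0.27 ± 1.67 SD, n = 4, limma adjusted p = 0.841). Krt17 gave 3.33, 0.79, 0.81 and -1.34 (mean 0.90 ± 1.91 SD, n = 4, limma adjusted p = 0.545). On array 3, Krt16 was therefore 2.65-fold lower and Krt17 1.75-fold higher in the channel labelled DEP, although both are type I keratins with overlapping use in injured skin. Krt16 levels in the control extracts were 226, 274, 926 and 392, so that the control extract of array 3 stood above the other controls. Krt6b, a near-identical paralogue of Krt6a whose signal may be shared with it, had -0.80 on array 3 on 1 probe and -2.41 on the other, and Krt6a had -0.11. Without array 1 the means of Krt6a, Krt16, Krt17 and Krt6b were -0.12, -0.49, 0.09 and -0.66, and without array 4 those of Krt6a, Krt16 and Krt17 were 1.05, 0.48 and 1.64.

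**Figure D2:**
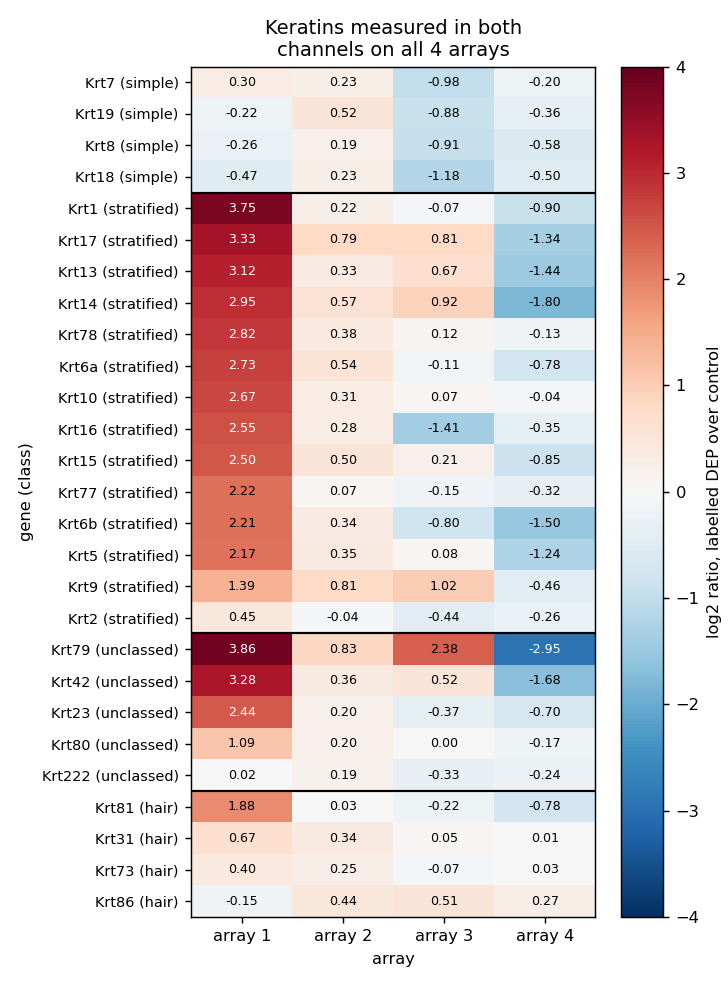
Log2 ratio (colour scale, red channel, labelled DEP, over green channel, labelled control) of the 27 measured keratins, with genes in the vertical direction grouped by class and the 4 arrays in the horizontal direction. On array 1 the 14 stratified keratins range from 0.45 (Krt2) to 3.75 (Krt1), and on array 4 from -1.80 (Krt14) to -0.04 (Krt10).

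The simple keratins did not follow this order. The median ratio of the 5 simple keratins was -0.22 on array 1, 0.23 on array 2, -0.91 on array 3 and -0.36 on array 4, where normexp background correction with median centring gave 0.01 for the last value. Mean ratios had a median of -0.29, with 0 of 5 genes above 0 and with 2 of 5 above 0 (Krt18 at 0.02 and Krt19 at 0.01) under that setting, where the median was -0.043 and Krt8 had -0.11. The median of -0.29 is the mean of Krt20, which was above background in 1 extract of each group. Ratios of Krt20 were 0.34, -2.50, 0.21 and 0.79, so its mean below 0 rests on array 2. Over the 4 measured simple keratins the median of mean ratios was -0.31. The array on which the simple keratins lay lowest by median was array 3, not array 4.

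Krt18, the type I partner, had levels of 1935, 8193, 5260 and 9571 in the extracts labelled DEP and of 2686, 7003, 11917 and 13525 in the control extracts. Both extracts of array 1 were the lowest of their group, and the groups overlapped. Its ratios were -0.47, 0.23, -1.18 and -0.50 (mean -0.48 ± 0.57 SD, n = 4, SE 0.24, limma adjusted p = 0.349). Krt8, its type II partner, had levels of 293, 1095, 635 and 1210 in the extracts labelled DEP and of 351, 958, 1196 and 1807 in the control extracts. The ratios of Krt8 were -0.26, 0.19, -0.91 and -0.58 (mean -0.39 ± 0.47 SD, n = 4, SE 0.21, limma adjusted p = 0.365), on every array the same sign as those of Krt18. Krt19, a type I keratin of simple and ductal epithelia, had ratios of -0.22, 0.52, -0.88 and -0.36 (mean -0.23 ± 0.58 SD, n = 4, limma adjusted p = 0.624). Krt7, a type II keratin of glands and ducts, had 0.30, 0.23, -0.98 and -0.20 (mean -0.16 ± 0.59 SD, n = 4, limma adjusted p = 0.742), and without array 3 its mean was 0.11. All 4 of these genes had their highest level in the control extract of array 4, where 11.8% of all measured genes had theirs, and their lowest on array 1. Krt20, the keratin of gut lining, was above background in 2 of the 8 extracts.

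Extract by extract, the highest levels of the classes fell in different places. Of the 14 measured stratified keratins, 13 had their highest level in the extract labelled DEP on array 1, where 23.9% of all measured genes had theirs. The lowest level fell in the control extract of array 1 for 7 of them (16.2% of all measured genes) and in the extract labelled DEP on array 4 for 5 (8.42%). For the simple keratins both channels of array 1 were low, and 3 of 4 had their lowest level in its extract labelled DEP, against 22.5% of all measured genes.

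**Figure D3:**
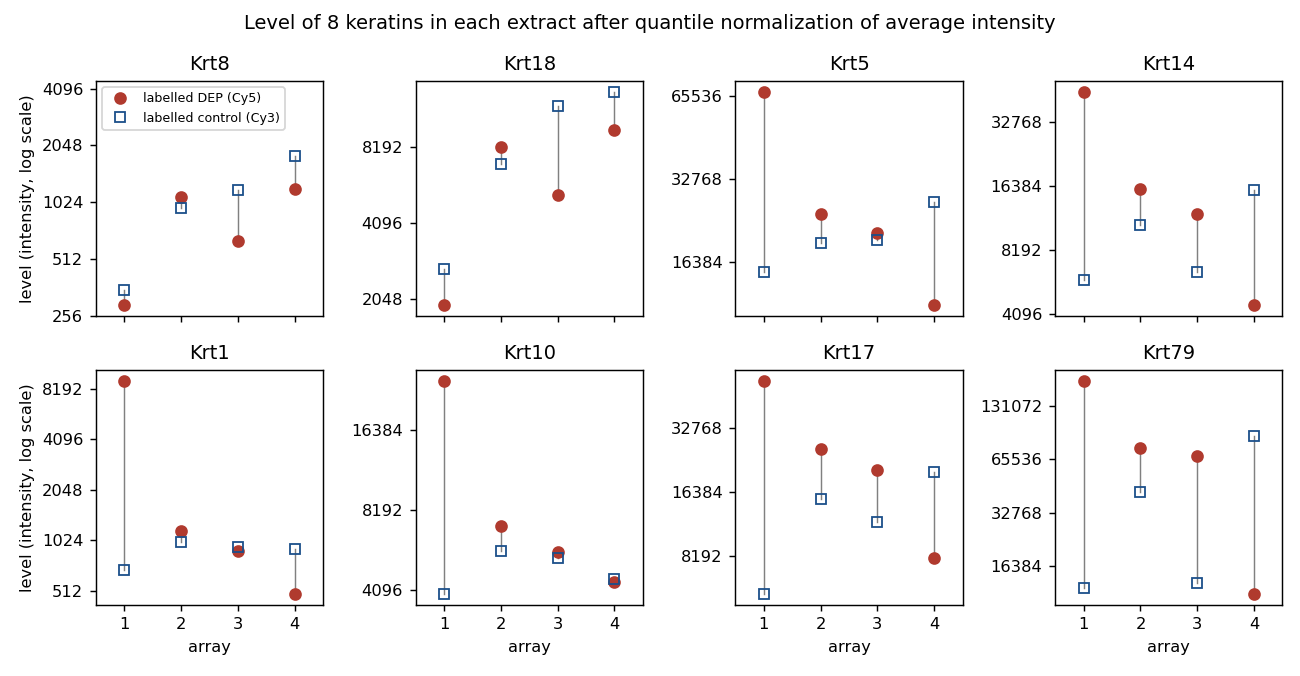
Normalized level (intensity, log axis) of keratins in each of the 8 extracts, by array (horizontal axis) and channel (labelled DEP or control). Krt14 runs from 45790 on array 1 to 4497 on array 4 in the extracts labelled DEP, while Krt18 runs from 1935 to 9571.

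Hair keratins had widely spread ratios. The 15 tested had median ratios of 0.41, 0.20, 0.20 and 0.03, and medians of 0.10, -0.01, -0.08 and -0.14 with normexp background correction and median centring, so that no direction can be given for the class. Among the 4 measured the array 1 median was 0.54, and with Krt28 and Krt75 added it was 1.18. Of the 15, 13 had a mean ratio above 0, and 8 under that setting. On array 1 the ratios of 14 hair keratins ran from -1.89 to 3.03, with 5 past 2-fold higher (8.47% of all genes with a ratio there) and 2 past 2-fold lower (9.59%), and of these Krt81 alone was measured. Of the 4 measured, Krt31, a type I hair shaft keratin, had ratios of 0.67, 0.34, 0.05 and 0.01, and Krt86, a type II hair shaft keratin, had -0.15, 0.44, 0.51 and 0.27. Krt73, a keratin of the inner root sheath, had 0.40, 0.25, -0.07 and 0.03. Neither Krt31, Krt86 nor Krt73 reached 2-fold on any array. Krt81 was the exception among the 4, with 1.88, 0.03, -0.22 and -0.78. Krt28, an inner root sheath keratin above background in 3 extracts of each group, had 3.03, 0.06, 2.58 and -2.35, while its dimmer probe gave 3.81, 0.46, 0.03 and -0.80, so that the probes disagree on array 3. Krt75, the companion layer keratin, had 1.68, 0.20, 0.03 and -0.06.

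In each subgroup of the stratified class the median was highest on array 1 and lowest on array 4. The 3 basal keratins had median ratios of 2.50, 0.50, 0.21 and -1.24, and the 5 suprabasal ones 2.22, 0.22, -0.07 and -0.32. The 4 keratins of injury and appendages had 2.64, 0.44, -0.46 and -1.06. The 3 of mucosa and cornea tested had 2.82, 0.38, 0.40 and -1.44, with array 3 resting on 2 of them. Without Krt4, which was near background, the 2 measured ones had a median of -0.79 on array 4. Within the hair class the 8 inner root sheath and companion layer keratins had 0.41, 0.05, 0.05 and -0.06, with 1 of them measured. The 7 hair shaft keratins had 0.26, 0.44, 0.51 and 0.25, with 3 of them measured. By chromosome, the 7 stratified keratins of chromosome 11 (type I) had 2.67, 0.50, 0.67 and -0.85 and the 8 of chromosome 15 (type II) had 2.22, 0.35, -0.11 and -0.84.

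Among the unclassed keratins, Krt79, Krt42, Krt23 and Krt80 were likewise highest on array 1 and lowest on array 4. Krt79, known from the sebaceous duct and the opening of the hair follicle, had levels of 181208, 76043, 68746 and 11451 in the extracts labelled DEP and of 12460, 42779, 13204 and 88232 in the control extracts. Its level in the extract labelled DEP was the higher on arrays 1 to 3 and the lower on array 4. The ratios of 3.86, 0.83, 2.38 and -2.95 gave a mean of 1.03 ± 2.93 (SD, n = 4, SE 1.14, limma adjusted p = 0.642). Without array 1 the mean was 0.09 and without array 4 it was 2.36. Krt42, a type I keratin close to Krt16 and Krt17, had 3.28, 0.36, 0.52 and -1.68, and Krt23 had 2.44, 0.20, -0.37 and -0.70. Krt80 had 1.09, 0.20, 0.00 and -0.17. Krt222 lay between -0.33 and 0.19 on its brighter probe, whereas a dimmer one, above background in 2 control extracts, gave -1.38, -1.59, 0.98 and 1.11, and the brighter probe's mean of -0.09 was 0.37 with normexp background correction and median centring.

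The 3 keratins with an unadjusted p under 0.05 were dim. Krt90 had ratios of 0.36, 0.75, 0.55 and 0.96 (mean 0.66 ± 0.26 SD, n = 4, limma adjusted p = 0.148) and was above background in all 4 extracts labelled DEP and 2 control extracts. Its mean was 0.12 with normexp and loess and 0.0084 with normexp and median centring. Krt88 had 0.15, 0.36, 0.39 and 0.52 (mean 0.35 ± 0.15 SD, n = 4, limma adjusted p = 0.222), was above background in 1 extract, and its mean was 0.042 and -0.14 under these settings. Krt74, an inner root sheath keratin, had -0.52, -1.04 and -1.19 on arrays 1, 2 and 4 (mean -0.92 ± 0.35 SD, n = 3, limma adjusted p = 0.165), was not above background on any array, and had means of -0.097 and -0.25 under them. The SDs of these 3 genes were between 0.15 and 0.35. Besides Krt79, the genes past 2-fold by mean were Krt33b, a hair shaft keratin, at 1.04 (3 ratios, above background in 3 extracts), and Krt71, an inner root sheath keratin, at -1.01 (3 ratios, above background in 1 extract). With normexp and loess these means were 0.23 and -0.14.

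The junctions to which keratin filaments attach were counted next. Of 21 desmosome and hemidesmosome genes tested, 0 had an unadjusted p under 0.05 in either direction (10% and 8.66% of all genes), and the median ratios were 2.63, 0.48, 0.10 and -0.84. Among the 19 measured, 14 were past 2-fold higher on array 1, against 6.82% of all measured genes, and 9 past 2-fold lower on array 4, against 2.95%. Desmoplakin (Dsp), which anchors keratins to the desmosome, had ratios of 3.54, 0.81, 0.96 and -1.52 (limma adjusted p = 0.553). Desmocollin Dsc2 had 4.10, 0.87, 1.12 and -1.47 (limma adjusted p = 0.516), and desmoglein Dsg1a had 3.06, 0.64, 0.62 and -0.28 (limma adjusted p = 0.386). Array 1 held the highest and array 4 the lowest ratio of each of these 3.

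Regulators of epithelial identity and of keratin genes gave median ratios of 1.76, 0.62, 0.30 and -0.33 over 18 tested. Of the 18, 2 had an unadjusted p under 0.05 towards higher, where 10% of all genes had, and 0 towards lower, where 8.66% had. The 2 were Foxn1 and Hoxc13, both above background on some arrays only. The grainyhead factor Grhl3 had ratios of 3.20, 0.88, 0.71 and -0.79, the splicing regulator Esrp2 had 3.98, 0.67, 1.09 and -1.83, and Grhl1 had 4.05, 0.49, 1.01 and -1.76. Among the 14 regulators measured, 11 were past 2-fold higher on array 1, against 6.82% of all measured genes, and 3 past 2-fold lower on array 4, against 2.95%. Trp63, the master regulator of stratified epithelium, was measured and had -0.03, 0.15, -0.04 and 0.16, and the homeobox gene Msx2 had 0.03, -0.54, 0.10 and 0.65, both without the high ratio on array 1 (named after their values were seen). Without array 1 the mean was -0.02 for Esrp2 and -0.09 for Grhl1. The 13 other cytoplasmic intermediate filament genes, those of non-epithelial cells, had medians of -0.54, -0.25, -0.27 and 0.47, so that array 4 was the highest and not the lowest. Among them 0 had an unadjusted p under 0.05 towards higher and 1 towards lower, against 10% and 8.66% of all genes. The 1 was the neuronal filament gene Ina at -1.77, -1.35, -0.90 and -0.18 (limma adjusted p = 0.184). Peripherin (Prph), of peripheral neurons, had -3.10, -0.64, -1.59 and 0.14, and the glial filament gene Gfap had -3.35, -0.66, -0.81 and 0.35. The Krtap genes, which encode the matrix proteins of hair, had medians of 0.20, 0.22, -0.02 and 0.06 over 31 tested, with 7 higher and 1 lower at an unadjusted p under 0.05, where 10% and 8.66% of all genes were. Mean ratios had a median of 0.19 over the 31 and of -0.05 over the 10 that were measured.

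**Figure D4:**
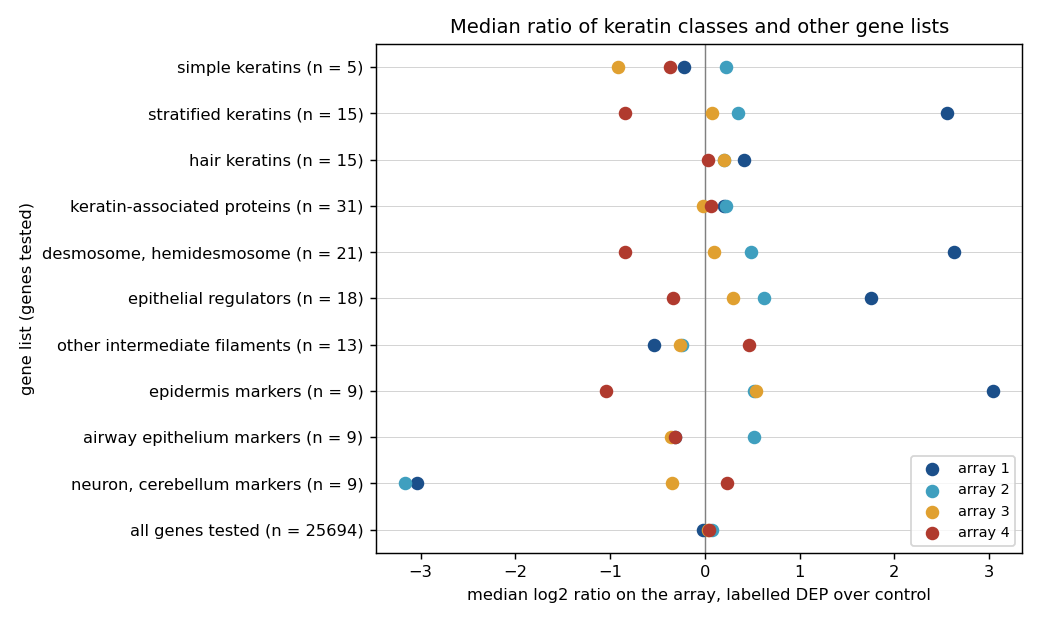
Median log2 ratio (horizontal axis, red channel, labelled DEP, over green channel, labelled control) on each of the 4 arrays for keratin classes and other gene lists (vertical axis, number of genes tested in brackets). Stratified keratins (2.55 on array 1, -0.85 on array 4), desmosome genes (2.63 and -0.84) and epidermis markers (3.04 and -1.04) have their highest median on array 1 and their lowest on array 4, and neuron and cerebellum markers have -3.04 and 0.23 there, with their lowest, -3.16, on array 2.

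Markers of other tissues also had ratios far from 0 on single arrays. Of 10 epidermis markers, 8 were measured, none of those with a probe was at background on all arrays, and Flg had no probe that could be named. Their median ratios were 3.04, 0.52, 0.54 and -1.04. Their summed level ran from 38138 (array 4) to 227508 (array 1) in the extracts labelled DEP and from 28032 (array 1) to 66511 (array 4) in the control extracts, the same extreme extracts as for Krt14. Loricrin (Lor), a protein of the cornified layer, had ratios of 3.04, 0.31, 0.02 and -0.12. The epidermis list's part in the stratified keratin ratios was not tested. Of 10 airway-type epithelium markers, 9 were measured, with median ratios of -0.31, 0.52, -0.36 and -0.32. These medians had the signs of the simple keratin medians, whose sign on array 4 depended on the scaling. Single genes departed from the medians, as 1, 8, 2 and 1 of the 9 were above 0 on arrays 1 to 4. Their summed level ran from 175901 (array 1) to 429961 (array 4) in the extracts labelled DEP and from 318139 (array 2) to 661712 (array 3) in the control extracts, and their part in the simple keratin ratios was not tested.

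Markers of neurons and cerebellum, which are not tissues of the middle ear lining, had median ratios of -3.04, -3.16, -0.35 and 0.23, with 7 of 10 measured, and a summed level between 14856 and 18969 in the extracts labelled DEP and between 16065 and 81281 in the control extracts. For skeletal muscle the medians were -0.72, -0.46, 0.75 and 0.80 with 10 of 10 measured. Bone and cartilage markers had -0.14, 0.13, 0.15 and 0.23 with 8 of 10 measured, and marrow and blood markers had -0.76, 0.05, 0.46 and 0.17 with 10 of 10 measured. The part of these tissues in the keratin ratios was not tested.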

How the data were processed

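Total RNA of ear tissue was labelled with Cy5 or Cy3 and hybridised to 4 two-colour mouse arrays, 1 extract of each group per array. Per the file headers the authors quantified the spots with Agilent Feature Extraction 10.10.1.1. The deposited processed signals are intensities after background subtraction and dye normalization within the array, and the deposited log10 ratios set Cy5 over Cy3. The authors' files also hold flags of 0 or 1 per spot (background, outlier, saturation), and the deposited table of log10 ratios equals the array files' ratios after rounding.

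The deposited log10 ratios were turned into log2 ratios. Control spots, outlier spots (164 to 274 per array) and spots without a ratio (6179 to 8558 of 43020) were left out, and no used spot was saturated. Probes were named by accession through a RefSeq table of GRCm38.p6 (27649 of 39429 probes), whereas the array header names an older build, so no coordinates of probes are given. The brightest probe stood for a gene. An intercept was fitted in limma 3.58.1 (R 4.3.3) to the ratios of 31577 probes with at least 3 of 4 ratios, two-sided, with Benjamini-Hochberg adjustment. With 4 ratios an exact sign-flip test of 1 gene cannot go below p = 0.125. Channel levels were scaled across arrays with limma's Aquantile. On data simulated for this comparison, with 200 of 31577 probes changed, the fit recovered 68 of 100 changed by 2 and 24 of 100 changed by 1 on the log2 scale. The simulated errors were independent, with SDs drawn from all probes. Stratified keratins had a median SD of 1.52, against 0.34 over all genes, so these recovery counts cannot be carried over to them. Tables and figures used Python 3.11.15 with numpy 2.4.6, pandas 2.3.3 and matplotlib 3.10.9.

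The members and all gene lists (keratin classes, desmosome and hemidesmosome, epithelial regulators, other intermediate filaments, Krtap, and markers of epidermis, airway-type epithelium, neurons and cerebellum, muscle, bone and cartilage, and marrow and blood) were chosen with earlier results of these data known. Lists were described by counts and medians without a set test. Named were keratins measured in at least 1 channel on all arrays with an unadjusted p under 0.05 or a mean past 2-fold, the usual filament pairs and simple keratins, the 3 genes with the largest mean ratio of each partner list among those measured in both channels on every array, and genes behind counts of 5 or fewer. Keratins named to describe the classes beyond this rule (such as Krt15, Krt42, Krt28 and Krt81) were chosen after their values were seen. Alternatives were normexp (offset 50, on median spot signals) with loess or median centring, the deposited ratio table, 2 filters on dim probes, outlier spots kept, an intensity trend, least squares, the mean of a gene's probes, and each array left out. The study's qRT-PCR was not analysed here.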

Additional observations from a re-analysis of the deposited data

Results flagged for a closer look

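The ratios of 45 genes and class medians were checked for 1 array far from the other 3, which chance gives in about 1 of 20 groups, and 3 stood out, each on array 1. Krt10 had a ratio of 2.67 there and -0.04 to 0.31 on the other arrays. Krt77 had 2.22 there and -0.32 to 0.07 elsewhere. Krt75 had 1.68 there and -0.06 to 0.20 elsewhere.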

How the results depend on the processing

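Under all alternatives run, 0 keratins had an adjusted p under 0.05, although normexp with median centring (called median centring from here, a change of both background correction and scaling) called 2990 genes of the array, and moved the all-gene median from 0.03 to 0.11 and from 0.03 to 0.21 on array 3. The stratified class kept the sign of its median on every array under the alternatives that keep all arrays. The number of keratins with an unadjusted p under 0.05 went from 3 to 0 with normexp and loess, to 1 with the filter on 1 channel and to 0 with that on both channels, and was 3 to 9 with an array left out. The number past 2-fold went from 3 to 1 with normexp and loess and with either filter, and to 7 with median centring (all higher: Krt1 1.02, Krt5 1.03, Krt10 1.14, Krt14 1.22, Krt15 1.2, Krt17 1.49 and Krt79 1.83), and was 2 to 15 with an array left out. For the normexp settings and the filters, the shares of all genes at these thresholds are not given here. The keratin counts under those settings therefore do not set the family apart from other genes. The hair median of 0.27 was 0.092 with loess and 0.050 with median centring. For the array medians of the hair class, loess gave 0.13 on array 1, median centring 0.10, -0.0098, -0.080 and -0.14 on arrays 1 to 4, the filter on 1 channel 1.18 on array 1 and 0.038 on array 3, and the filter on both channels -0.013 on array 3. The simple median on array 3 was -0.42 with median centring. The mean of Krt90 went from 0.66 to 0.12 with normexp and loess and to 0.0084 with median centring. Under median centring the mean ratios of Krt18 (0.019), Krt19 (0.0074), Krt222 (0.37), Krt4 (-0.088) and Krt88 (-0.14) had the other sign, and the mean of its probes gave Krt2 0.66. The cause of these shifts was not tested.

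With each array left out in turn, the median of mean ratios ran from -0.12 to 1.07 for stratified, -0.49 to -0.22 for simple and 0.14 to 0.36 for hair keratins. Mean ratios that changed sign ran from -0.27 to 0.87 for Krt5, -0.11 to 1.48 for Krt14, -0.044 to 1.07 for Krt15, -0.25 to 1.30 for Krt1, -0.25 to 0.051 for Krt2, -0.13 to 0.71 for Krt77, -0.48 to 1.39 for Krt4, -0.15 to 1.38 for Krt13, -0.12 to 1.05 for Krt6a, -0.66 to 0.58 for Krt6b, -0.49 to 0.83 for Krt16, -0.27 to 1.39 for Krt42, -0.29 to 0.75 for Krt23, -0.32 to 0.56 for Krt81, -0.27 to 0.69 for Krt72, -0.31 to 0.11 for Krt7, -0.65 to 0.45 for Krt20, -0.023 to 1.91 for Esrp2 and -0.086 to 1.85 for Grhl1. The fit is itself paired, since each ratio sets the extracts of an array against each other, and no further block could be fitted. Signal over background limits the hair keratins, of which 4 of 23 could be measured.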
